A study of Homo sapiens with 4 samples.

Results

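The ROCK1P1 cluster is a group of S100A10 ChIP-seq summits near the beginning of chromosome 18, where the noncoding genes ROCK1P1, LOC112268408 and MIR8078 overlap each other. Its members were all the summits whose peak interval shared at least 1 bp with one of these 3 genes, out of 59679 annotated genes. They were 11 of the 6044 summits in all, made up of 6 of 4530 in HCT116 and 5 of 1514 in LoVo. The 3 genes had been chosen by the measured values of these lists, because peaks lay in them in both cell lines, so the presence of peaks here is a description and not a finding.

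S100A10 ChIP-seq was performed in PGCCs with daughter cells derived from HCT116 and LoVo, which are established cell lines of human colorectal cancer. PGCCs are polyploid giant cancer cells, which arise under cobalt chloride (CoCl2), a chemical that mimics low oxygen, and which bud off small daughter cells. Each line gave 1 library from DNA recovered with an S100A10 antibody and 1 library from input DNA, 4 libraries in all, and the labels gave a different antibody lot for each line. Every library came from cells treated with CoCl2 at 535.5 μM for 48 h according to the labels, as mixtures of PGCCs and daughter cells. The methods of the study give another dose of CoCl2, and a range of durations that includes the one in the labels. There was no untreated group, no ChIP with a control antibody among the libraries analysed here, and no replicate, so no value below has a replicate error. Intervals given with tag numbers are 95% exact Poisson intervals and cover counting error only.

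A pseudogene is a copy of a gene that has lost the ability to make the full protein. ROCK1P1 is a transcribed pseudogene derived from ROCK1, which encodes a kinase that makes the actin and myosin cytoskeleton contract. LOC112268408 is a predicted long noncoding RNA gene, and MIR8078 is a microRNA gene, whose hairpin transcript is processed into a short RNA that pairs with messenger RNAs mainly through its seed. S100A10 is a small protein best known as the partner of annexin A2 at the plasma membrane.

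By RefSeq on GRCh38.p14, LOC112268408 covered chr18:103487-174689 and was 71203 bp long. ROCK1P1 lay inside it at chr18:109065-122340 and was 13276 bp long. MIR8078 lay inside ROCK1P1, on the minus strand, at chr18:112256-112339. A peak in MIR8078 was therefore also a peak in ROCK1P1 and in LOC112268408, and the counts for the 3 genes are not independent. The hairpin and the mature microRNA are shown because one summit of each cell line fell within this hairpin. Sequences are from RefSeq and are written 5′ to 3′ on the minus strand, with the mature part of the hairpin and the seed of the mature microRNA (bases 2 to 8) in capitals.
MIR8078 hairpin: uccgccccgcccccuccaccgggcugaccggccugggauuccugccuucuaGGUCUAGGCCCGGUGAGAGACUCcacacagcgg
miR-8078: gGUCUAGGcccggugagagacuc

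The hairpin had 70.2% G and C, against a median of 52.1% over 1560 human hairpins, of which 8.27% had at least as much. Of 2545 mature human microRNAs, 1 had this seed, namely miR-8078 itself.

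In both cell lines the summits lay in a short stretch at one side of the region. The HCT116 peaks ran from 107115 to 112486, a span of 5372 bp in 4 intervals that covered 3918 bp. The LoVo peaks ran from 107151 to 112465, a span of 5315 bp in 5 intervals that covered 2196 bp. Every one of these 2196 bp lay within the HCT116 intervals, of which they made up 56.0%. The spans took up 7.54% and 7.46% of LOC112268408 in HCT116 and LoVo, and no peak lay in the remaining 62203 and 62224 bp towards its high-coordinate end. All 6 and 5 summits overlapped LOC112268408. The intervals of 5 HCT116 and 3 LoVo summits overlapped ROCK1P1, and those of 1 summit in each list overlapped MIR8078.

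**Figure D1:**
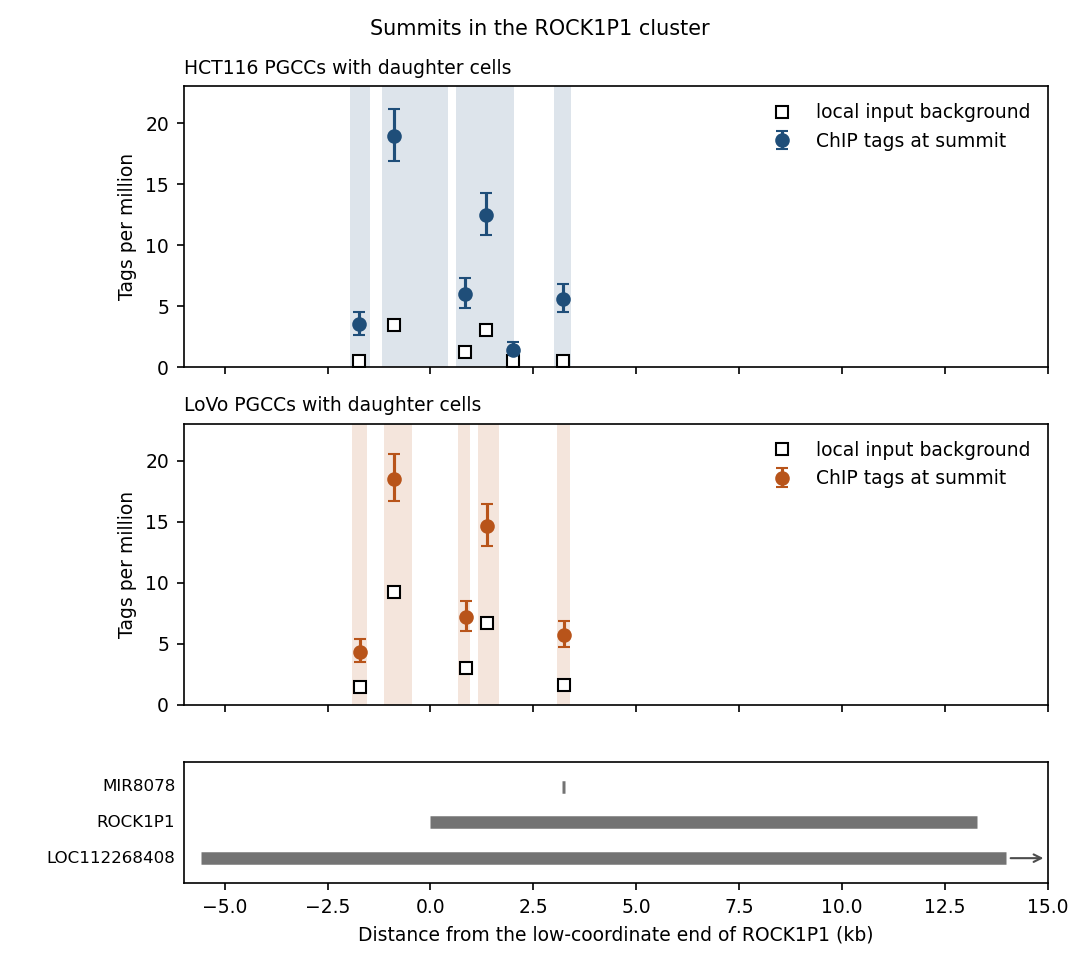
ChIP tags per 1000000 at each summit (filled points, bars show 95% exact Poisson intervals) and the local input background in tags per 1000000 over 1 fragment length (open squares), against the distance in kb from the low-coordinate end of ROCK1P1, with peak intervals shaded and gene bodies below. In both cell lines the highest summit, 18.9 per 1000000 in HCT116 and 18.5 in LoVo, lay just before ROCK1P1, the next was inside it, and LOC112268408 runs on beyond the right edge.

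The depth of the ChIP libraries was 16561424 uniquely mapped tags without duplicates in HCT116 and 19762814 in LoVo, and that of the input libraries was 14962190 and 12925105. The deposited pileup is the number of extended ChIP tags over a summit after the ChIP library was scaled to the size of the input, by 0.903 in HCT116 and 0.654 in LoVo. Division by this scale gave whole numbers of tags, within 0.00553 of a tag in HCT116 and 0.00761 in LoVo over all summits. Fold enrichment divides the pileup by the local background after 1 is added to each. This background was recovered from it, and is the largest of the genome-wide mean and the input density within 1 fragment length (260 bp in HCT116, 281 bp in LoVo), 1000 bp and 10000 bp around the summit.

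The cluster's summit with the most ChIP tags lay in LOC112268408 just before ROCK1P1 in both lists. In HCT116 it was at 108182, within the interval chr18:107888-109498, with a pileup of 282.78, which is 313 tags (279 to 350). In LoVo it was at 108171, within chr18:107928-108626, with a pileup of 239.37, which is 366 tags (329 to 405). It ranked 22 of 4530 by pileup in HCT116 and 15 of 1514 in LoVo. The HCT116 summit lay at −0.883 kb from the low-coordinate end of ROCK1P1, and its interval reached 434 bp into the pseudogene, whereas the LoVo interval ended before it.

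The second highest summit of the cluster lay inside ROCK1P1 in both lists. It was at 110419 in HCT116, with a pileup of 186.11 and 206 tags (179 to 236), and at 110443 in LoVo, with a pileup of 189.66 and 290 tags (258 to 325). The next one inside ROCK1P1 was at 109899 in HCT116, with a pileup of 89.44 and 99 tags (80.5 to 121). Its LoVo counterpart at 109920 had a pileup of 92.87 and 142 tags (120 to 167). In HCT116 both belonged to a single interval, chr18:109688-111101, while in LoVo they were called as separate intervals, chr18:109730-110027 and chr18:110227-110724.

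The summits at MIR8078 were 4 bp apart in the cell lines. In HCT116 the summit was at 112295, within chr18:112070-112486, with a pileup of 83.12 and 92 tags (74.2 to 113). In LoVo it was at 112299, within chr18:112145-112465, with a pileup of 73.9 and 113 tags (93.1 to 136). Both intervals covered the whole hairpin. On the printed hairpin these summits fell at base 45 and base 41, which is 7 and 11 bp before the first base of the mature microRNA. The HCT116 interval reached 186 bp below and 147 bp above the hairpin and the LoVo interval 111 and 126 bp, so neither list resolves the hairpin from the part of ROCK1P1 around it.

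The first summit of the cluster overlapped LOC112268408 alone. It was at 107331 in HCT116, within chr18:107115-107590, with a pileup of 52.4 and 58 tags (44.0 to 75), and at 107341 in LoVo, within chr18:107151-107530, with a pileup of 56.24 and 86 tags (68.8 to 106). These 5 positions kept the same order of ChIP tags in both cell lines, although the counting intervals overlapped between 109899 and MIR8078 in HCT116, and likewise between their LoVo counterparts, as they did between MIR8078 and the first position in both. The remaining member was a summit found in HCT116 alone, at 111071 near the high-coordinate end of the long interval inside ROCK1P1, with a pileup of 20.78 and 23 tags (14.6 to 34.5). The nearest LoVo summit was 628 bp from it.

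For most members the rank by the authors' score was higher than the rank by fold enrichment. The score is −log10 q, the p-value adjusted by the peak caller for multiple testing. It was 103 for the highest HCT116 summit, which ranked 15 of 4530 by it, and 51.7 at MIR8078 (rank 62), 50.2 at 110419 (70), 26.4 at 109899 (152) and 20.5 at 107331 (219). In LoVo it was 16.4 for the highest summit, which ranked 55 of 1514, and 16.0 at 110443 (58), 13.4 at MIR8078 (79), 8.18 at 109920 (146) and 7.60 at 107341 (163). The summit at 111071 had 0.566 (rank 1916), the only member that did not reach a q of 0.05. So 5 of 6 HCT116 and 5 of 5 LoVo members had a q of 0.05 or less, in lists where 29.3% and 33.4% of all summits did. The score is part of what chose the genes, so nothing is read from these shares.

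Within the cluster, fold enrichment put the MIR8078 summit first in both cell lines. It was 10.1 in HCT116 and 3.40 in LoVo, which ranked 54 of 4530 and 489 of 1514. The summit with the most tags had a fold enrichment of 5.35 in HCT116 and 2.0 in LoVo, which ranked 442 and 1422. The others had 5.95 at 107331, 4.52 at 109899, 4.07 at 110419 and 2.46 at 111071 in HCT116. In LoVo they had 2.98 at 107341, 2.38 at 109920 and 2.19 at 110443. The median of the members was 4.94 in HCT116 and 2.38 in LoVo, and 12.5% and 84.1% of all summits had a fold enrichment at least as high. In LoVo, 4 of the 5 members were below the list median of 3.03, with ranks of 790, 1273, 1358 and 1422 of 1514, and MIR8078 was above it.

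Fold enrichment depends on the local background, which was high throughout the cluster. At the summit with the most tags, the HCT116 background was 52.0, set by 52 input tags within 1 fragment length, which was 41.5 times the genome-wide mean of 1.25. In LoVo it was 119, set by 119 input tags, or 101.7 times the mean of 1.17. At the second summit it was 45.0 in HCT116 and 86.0 in LoVo, or 35.9 and 73.5 times the mean. Among the positions of the cluster, the input was thus highest at the same 2 as the ChIP.

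At 109899 the HCT116 background was 19.0, from 19 input tags within 1 fragment length, or 15.2 times the mean. At 109920 in LoVo it was 38.5, from 137 input tags in 1000 bp, or 32.9 times the mean. At the remaining positions, except MIR8078 in LoVo, a wider window set the background, which takes in the input at the 2 highest summits as well. The background at 107331 in HCT116 was set by 307 input tags in 10000 bp, at 111071 by 302 and at 112295 by 282, against a mean of 48.3 per 10000 bp over the genome. These backgrounds were 7.98, 7.85 and 7.33, or 6.37, 6.26 and 5.85 times the mean. At 107341 in LoVo it was set by 649 input tags in 10000 bp, against a mean of 41.7, and was 18.2, or 15.6 times the mean. The MIR8078 background in LoVo was 21.0, from 21 input tags within 1 fragment length, or 17.9 times the mean, while HCT116 had at most 7 input tags in that window. The lowest of the members' backgrounds was reached by 5.67% of the HCT116 and 13.7% of the LoVo summits, and the median over all summits was 1.0 and 2.08 times the mean. The part that this input level plays in the peaks was not tested.

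**Figure D2:**
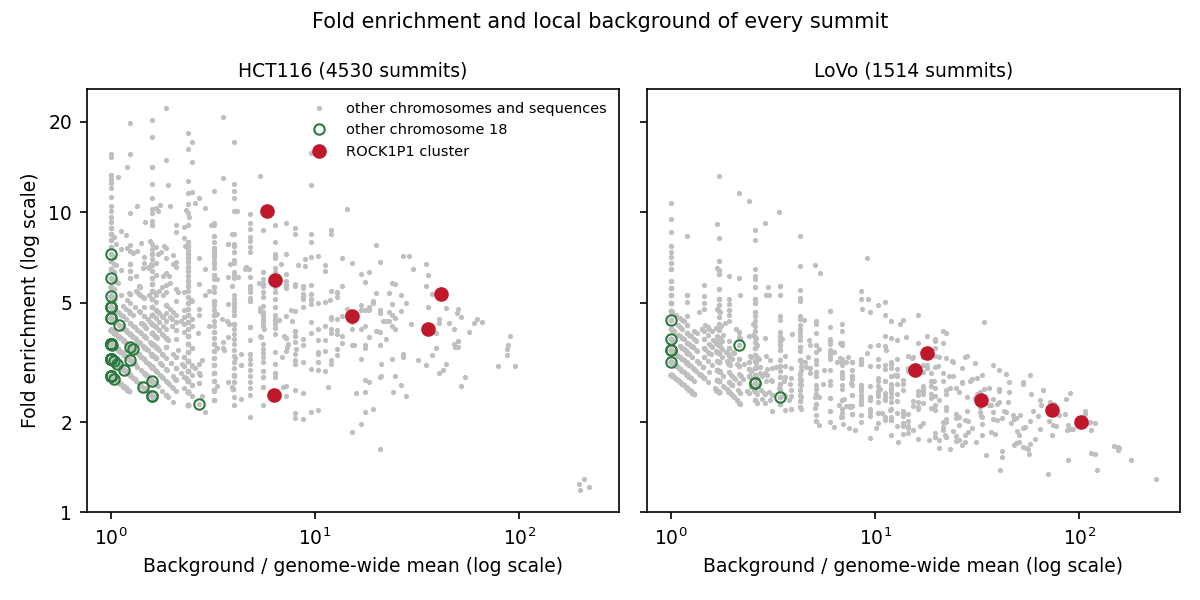
Fold enrichment against local background over the genome-wide mean for every summit, both on log axes, in HCT116 (left) and LoVo (right), with the cluster filled in red and other chromosome 18 summits as open green circles. The members lie at 5.85 to 41.5 times the mean in HCT116 and at 15.6 to 101.7 times in LoVo, to the right of every other chromosome 18 summit, and their fold enrichment is 2.46 to 10.1 in HCT116 and 2.0 to 3.40 in LoVo.

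The tags of both libraries can be set against each other without the pseudocount. The ratio of pileup to background at MIR8078 was 11.3 in HCT116 (95% interval from the counts of both libraries 8.86 to 14.4) and 3.52 in LoVo (2.20 to 5.91). Its input came from 10000 bp in HCT116 and from 1 fragment length in LoVo. Input windows also differed between 109899 and 109920 and between positions of the same line. Ratios from different windows, and their intervals, rest on unlike stretches of input. At the summit with the most tags it was 5.44 (4.04 to 7.44) and 2.01 (1.63 to 2.50). At the second summit it was 4.14 (2.98 to 5.84) and 2.21 (1.73 to 2.84), and at the first position of the cluster 6.56 (4.87 to 8.72) and 3.08 (2.43 to 3.87). At 109899 and 109920 it was 4.71 (2.86 to 8.15) and 2.41 (1.89 to 3.07). At 111071 in HCT116 it was 2.65 (1.65 to 4.05). A ratio above 1 is a condition of being called as a peak, so it is no finding here.

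Removal of duplicates left 1 tag per position and strand, which limits the tags over a summit to 520 in HCT116 and 562 in LoVo. The highest summit of the cluster was at 60.2% and 65.1% of this limit, and the second at 39.6% and 51.6%. The other summits were between 4.42% and 19.0% of it in HCT116 and between 15.3% and 25.3% in LoVo. At the highest positions the tag counts may therefore be compressed, but the number of fragments before removal of duplicates was not analysed here.

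The cell lines placed their summits almost at the same bases. The distances between the paired summits were +10, −11, +21, +24 and +4 bp, counted as LoVo minus HCT116 in the order along the chromosome. Of the HCT116 summits, 5 of 6 (83.3%) had a LoVo summit within 100 bp, and all 5 LoVo summits had one in HCT116. Over the whole lists the shares were 11.5% and 34.5%, but the genes were chosen for peaks in both lines, so nothing is read from the difference. The distances between neighbouring summits were 851, 1717, 520, 652 and 1224 bp in HCT116. In LoVo they were 830, 1749, 523 and 1856 bp. The median of the absolute distance was 11 bp, against 23 bp over the 516 pairs within 100 bp elsewhere in the lists, and 14 bp over the 177 of these whose background was at least 5 times the mean in both lines. Pairs were defined by a limit of 100 bp, which bounds these distances, and the difference between the medians was not tested.

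At matched positions, the shares of ChIP tags differed between the cell lines by less than the counting error, while the local input background was higher in LoVo. Scaled to 1000000 tags of the library and corrected for fragment length, the LoVo value was 0.952 times that of HCT116 at MIR8078 (95% interval 0.717 to 1.27). It was 0.907 times at the highest summit (0.778 to 1.06) and 1.09 times at the second (0.910 to 1.31). At the other positions it was 1.15 (0.815 to 1.63) and 1.11 (0.854 to 1.45). All 5 intervals include 1, which does not show that the lines were equal, since they reach from 0.717 to 1.63.

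The local background, per 1000000 input tags and corrected in the same way, was higher in LoVo than in HCT116 at all 5 positions. Where both lines used the same input window it was 2.45 times as high at the first position (95% interval 2.13 to 2.81), 2.45 times at the highest summit (1.76 to 3.46) and 2.05 times at the second (1.41 to 3.0). At MIR8078 it was 3.07 times as high and at the pair of 109899 and 109920 it was 2.17 times, but there the windows differed between the lines, so these ratios compare unlike stretches of input. The fold enrichment was accordingly higher in HCT116 at all 5 positions, by 2.97 times at MIR8078, 2.67 times at the highest summit, and 2.0, 1.90 and 1.86 times at the others. Because the fold enrichment has the background in its denominator, this difference follows from the 2 preceding ones.

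**Figure D3:**
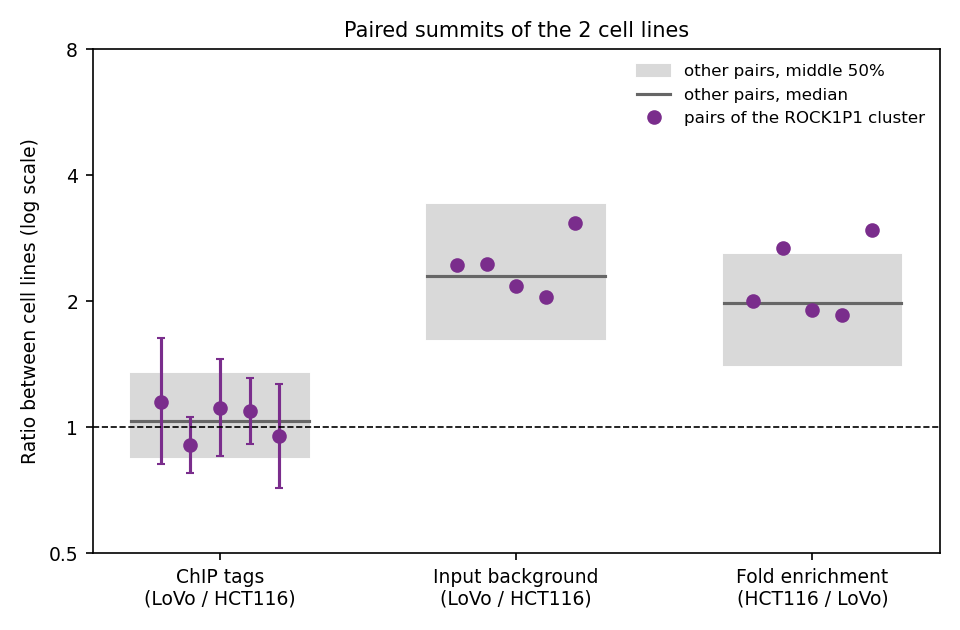
Ratios between the cell lines on a log axis for the 5 paired positions of the cluster (purple, with 95% counting intervals for ChIP tags), with the median and middle 50% of 516 other pairs in grey. Tags and background are per 1000000 and corrected for fragment length; ChIP ratios of the cluster lie around 1, background ratios at 2.05 to 3.07 and fold ratios at 1.86 to 2.97, inside or near the grey ranges.

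Elsewhere in the lists, paired summits gave the following ratios. Over the 516 pairs, the ChIP ratio of LoVo to HCT116 had a median of 1.03 (quartiles 0.851 and 1.34), against 1.09 in the cluster. The background ratio had a median of 2.30 (quartiles 1.62 and 3.40), against 2.45 in the cluster, and was over 1 in 488 pairs (94.6%). The fold enrichment was higher in HCT116 in 466 pairs (90.3%), with a median ratio of 1.98 against 2.0 in the cluster. Among the 177 pairs of high background the ChIP ratio had a median of 0.906 (quartiles 0.798 and 1.06), and the cluster median lay above the upper quartile. Their background ratio had a median of 2.02 (1.60 and 2.68) and their fold ratio 2.16 (1.77 and 2.60), with the cluster medians inside these quartiles. None of these differences was tested.

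ROCK1, the parent gene of the pseudogene, had no peak in either list. It covers chr18:20946906-21111813 on the minus strand, 164908 bp, and lies 20.8 Mb from ROCK1P1. The nearest HCT116 interval, chr18:20921170-20921492, was 25.4 kb from it, beyond its low-coordinate end. It held 10 tags at a background of 2.69 times the mean, and its fold enrichment was 2.29 and its −log10 q was 0. The nearest LoVo interval, chr18:20578122-20578402, was 368.5 kb away, and also held 10 tags. Its fold enrichment was 3.47 and its −log10 q was 0. Neither passed a q of 0.05, and no further summit lay within 1 Mb of ROCK1 in either list. Only uniquely mapped tags entered the lists, and tags that match ROCK1 and ROCK1P1 equally well would be absent from both. How many positions this concerns was not analysed here.

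**Figure D4:**
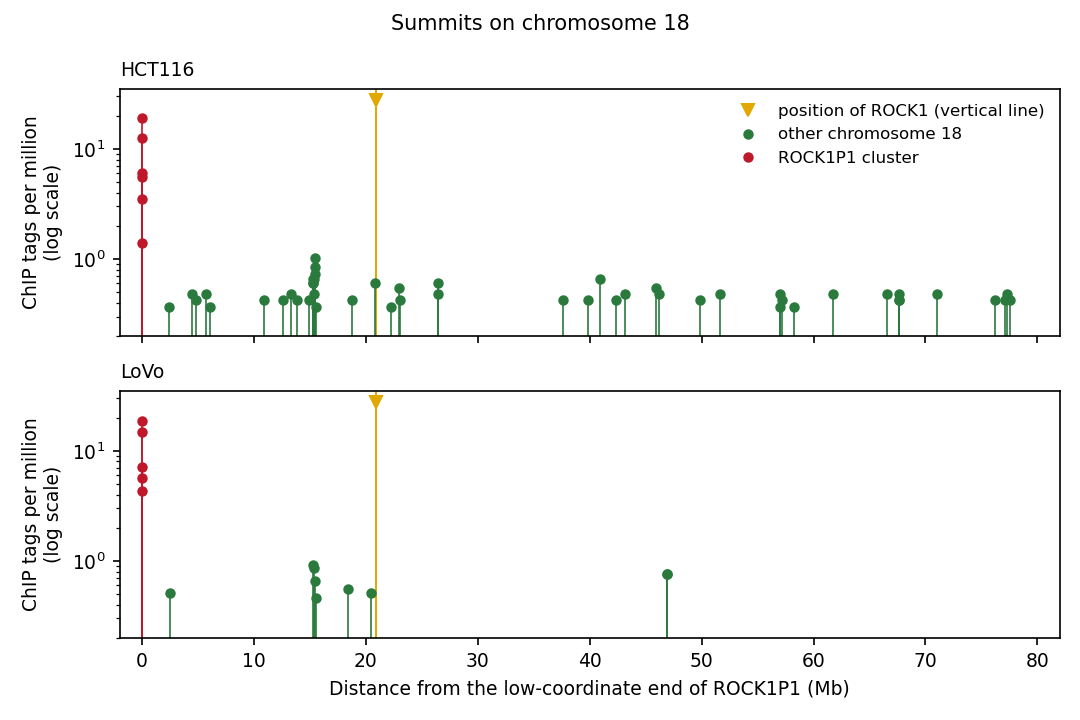
ChIP tags per 1000000 on a log axis for every summit of chromosome 18, against the distance in Mb from the low-coordinate end of ROCK1P1, with ROCK1 marked by a vertical line and a triangle. The cluster (red) stands at 1.39 to 18.9 per 1000000 in HCT116 and 4.35 to 18.5 in LoVo, above every other summit of the chromosome (green) in both lists.

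On chromosome 18, the cluster held most of the tags counted at summits. It made up 6 of 55 summits in HCT116 (10.9%) and 5 of 14 in LoVo (35.7%), and 66.4% and 89.4% of their tags. The 49 other HCT116 summits had 6 to 17 tags with a median of 8, and the 9 other LoVo summits 9 to 18 tags with a median of 13. None of them had a pileup as high as the lowest member. Their background was between 1.0 and 2.69 times the mean in HCT116 and between 1.0 and 3.42 times in LoVo. Their median fold enrichment was 3.25 in HCT116, below the 4.94 of the members, and 3.47 in LoVo, above the 2.38 of the members. The HCT116 ratio of these medians, 1.52, was 1.01 without the pseudocount and 1.10 among summits with a q of 0.05 or less. A q of 0.05 or less was given to 9 of the 49 and to none of the 9. No test was made, since the cluster was chosen on these scores and summits of 1 library are not replicates.

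The 6 strongest of the other summits, 3 per list, lay outside every annotated gene, and 5 of them lay near 15.5 Mb. In HCT116 the 3 with the highest −log10 q were at 15548608 (17 tags, fold enrichment 7.25, −log10 q 7.93), at 15552146 (14 tags, 6.05 and 4.83) and at 15515577 (12 tags, 5.25 and 2.93). In LoVo they were at 15552821 (13 tags, 4.38 and 1.10), at 15407521 (18 tags, 3.62 and 0.628) and at 18493302 (11 tags, 3.77 and 0.323). The HCT116 group from 15404778 to 15632315 held 9 summits and the LoVo group from 15407315 to 15643087 held 4. Their background was at most 1.60 times the mean in HCT116 and 3.42 times in LoVo. The highest of them had a higher fold enrichment than 5 of the 6 HCT116 members with 17 tags against 313 at the highest of these.

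The surroundings of the cluster had no peak. Of 32 genes in the first 1 Mb of chromosome 18, those with a peak were the 3 members in each list, and none of the 12 protein-coding genes had one. The nearest genes were LOC124905450 on the low-coordinate side, 3.34 kb from the first HCT116 interval, and LOC128966711 on the other side, 10.4 kb from the last. Farther out on the low-coordinate side lay TUBB8B, a beta-tubulin gene, at 33.6 kb, and on the other side USP14, which encodes a deubiquitinase of the proteasome, at 46.1 kb. The next peak along the chromosome was chr18:2469097-2469464 in HCT116, 2.29 Mb past the end of LOC112268408, with 6 tags and a −log10 q of 0. In LoVo it was chr18:2633158-2633438, 2.46 Mb past it, with 10 tags.

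Set against all annotated genes, a peak in both lists was rare. A peak lay in 2.26% of the 59679 genes in HCT116, in 0.436% in LoVo and in 0.109% (65 genes) in both. Ordered by the smaller −log10 q of the cell lines, LOC112268408 was the fifth of the 65 (16.4), ROCK1P1 the sixth (16.0) and MIR8078 the eighth (13.4). These ranks share evidence, since the intervals of 5 of the 6 HCT116 and 3 of the 5 LoVo summits in LOC112268408 also overlap ROCK1P1. The score and the peaks in both lists are part of what chose these genes, so nothing is read from the ranks. Of 1913 microRNA genes, 6 had a peak in HCT116 (MIR1224, MIR182, MIR196A1, MIR4519, MIR6823 and MIR8078) and 2 in LoVo (MIR6859-1 and MIR8078), so that MIR8078 was the 1 microRNA gene with a peak in both. It had been chosen for this, so the count is a description. S100A10 itself and ANXA2, which encodes annexin A2, had no peak in either list.

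The genes with values most like those of LOC112268408 were DUX4, CDC27P10 and DUX4L26. Likeness was the distance between the best summits over 4 values, the log2 of background over the mean and of fold enrichment in each list, among the 62 other genes with a peak in both. The closest was DUX4, a transcription factor gene within a tandem repeat, at a distance of 1.27. Its best summit had 203 tags, a fold enrichment of 6.83 and 20.7 times the mean background in HCT116, and 236 tags, 2.1 and 62.4 times in LoVo. The next were CDC27P10, a pseudogene of CDC27 (2.75), DUX4L26, a pseudogene of DUX4 (2.80), TTC34, a protein-coding gene (5.20), and DUX4L17, another DUX4 pseudogene (5.43). TTC34 and DUX4L17 were not close, with 3.99 and 1.70 times the mean background in HCT116 against 41.5 for LOC112268408. For genes with near-identical copies, the placing of tags on one copy may be uncertain, which was not analysed here.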

How the data were processed

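S100A10 ChIP and input DNA of HCT116-derived and LoVo-derived PGCCs with daughter cells were sequenced in pairs, 1 library per arm. Per the file headers, the authors called peaks for each line with MACS 2.1.0.20150420 from uniquely mapped tags without duplicates, at a p-value cutoff of 0.005 (the methods of the study state another), without a fragment model. The deposited signal is the scaled pileup at a summit, and the deposited ratio is the fold enrichment over local background each raised by a pseudocount of 1. Unadjusted −log10 p and adjusted −log10 q were deposited as well, under damaged column names, and were read by the column order of MACS. Although the header calls q not calculated, its column is filled and was used.

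The build and aligner are not given in the sources used here. Unplaced sequences carried GRCh38 names, so genes and sequences were taken from RefSeq on GRCh38.p14. A gene had a peak where an interval overlapped its body by 1 bp. Backgrounds, whole ChIP tags and input windows were computed from pileup, fold enrichment and header values. No test between groups was possible, and values are described with counting intervals. A summit pair lay within 100 bp.

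The members and gene lists were chosen with earlier results of these data known. The genes named were the 3 members, ROCK1, genes with a peak in the first 1 Mb and those next to the cluster, S100A10, ANXA2, the 3 highest other summits of chromosome 18 per list, and the 5 genes most like LOC112268408. Other names were added after their values were seen, namely TUBB8B, USP14 and the microRNA genes besides MIR8078. Alternatives were stricter scores, other overlaps and distances, longer gene bodies, merged summits, means and no pseudocount. Peak sequences were not analysed here, and 1 further list of genes is not reported here. Scripts ran in Python 3.11.15 (pandas 2.3.3, numpy 2.4.6, matplotlib 3.10.9, scipy 1.17.1).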

Additional observations from a re-analysis of the deposited data

How the results depend on the processing

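Of 39 alternatives, 30 left the value within 1.5 times of that reported or, for shares, within its exact binomial interval, and 9 did not. Part of the 30 could not have moved, so the tally is no measure of robustness. No other summit lay within 1 Mb of the cluster, and ROCK1 had no summit that a stricter score could remove. All LoVo members already had a q of 0.05 or less. The binomial interval takes the 6 or 5 summits as independent, although they were chosen together. A fold enrichment of at least 5 left 3 of the 6 HCT116 summits of the cluster and 0 of the 5 in LoVo. The share of HCT116 summits with a LoVo counterpart, 83.3% within 100 bp, became 100% by interval overlap and 33.3% when each interval had to cover at least 50% of the other, with which the LoVo share fell from 100% to 40%. The long HCT116 intervals set this value. The median HCT116 background, 10.8 times the mean, became 21.1 with the best summit of each interval and 18.5 as a mean. The median fold enrichment of the HCT116 cluster over that of other chromosome 18 summits, 1.52, became 1.01 without the pseudocount, which lowers the fold most where the background is low. ROCK1 had 1 HCT116 peak with 50 kb on each side of the gene body. Restricted to summits with a q of 0.05 or less on both sides, the HCT116 ratio of median fold enrichment was 1.10, within the 1.5 times limit. In LoVo, no other chromosome 18 summit had a q of 0.05 or less, so the comparison restricted to such summits gave no value. No paired analysis was possible because each arm had 1 library.

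Without replicates, counting error is the only error given here. Differences between cell lines cannot be told apart from differences between library preparations or, for the ChIP libraries alone, antibody lots. The tags of the highest summits are limited by removal of duplicates. Only uniquely mapped tags were counted, and how much of ROCK1 and ROCK1P1 they can reach was not analysed here.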
